A study of Oryza sativa with 12 samples.

Results

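The transcripts described here were measured in seedlings of the rice cultivar N22 and were absent from every library of the cultivar IR64. They were chosen from the measured values, as rows of the deposited tables that none of the 6 IR64 libraries listed and whose mean level over the 6 N22 libraries was at least 10 FPKM (a count of RNA fragments scaled by transcript length and by the number of fragments mapped in the library). A row is a transcribed locus of the submitters' assembly, with an XLOC identifier and, where it matched the annotation, a LOC_Os locus name. The rule took 110 of 39718 rows. RNA of seedlings was sequenced at an age of 21 days after a treatment of 6 h in reverse-osmosis water (control) or in 20% polyethylene glycol 6000, which draws water from the roots' surroundings (drought). IR64, which the submitters call sensitive to drought, and N22, which they call tolerant, each gave 3 control and 3 drought libraries. No transgene or mutant was used, and the labels name no organ. The replicates are called biological, but nothing says whether they came from separate plantings, so p-values reflect only how far these libraries lie apart, which may be technical.

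Rice cultivars differ in gene content as well as in alleles. DNA that is present in one cultivar can be missing, rearranged or strongly diverged in another, and families of repeated and defence genes are known for such variation. N22 belongs to the aus group and IR64 to the indica group, whereas the annotation used, RGAP, describes the japonica cultivar Nipponbare. A row that IR64 lacks may stand for missing DNA, for a silent gene, or for IR64 reads that were not aligned or were placed in another row, and these tables cannot tell them apart. In RNA of bulk seedlings, fewer cells of a type and less RNA per cell cannot be told apart either.

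The libraries listed 30625 to 32107 rows each, and FPKM values carry no read counts, so the depth is unknown. Shoot and root genes were both present, with control means in N22 of 7232 FPKM for RBCS2, the small Rubisco subunit, and 228 FPKM for Lsi1, a silicon transporter of roots. The dehydrin RAB16A, known to answer to drought, averaged 4.41 FPKM in the water-treated and 2270 FPKM in the PEG-treated N22 libraries. A row that a library does not list was set to 0, although a missing row may also stem from an estimate that failed. Of 952 rows missing from exactly 1 of the 12 libraries, 3 stood at 10 FPKM or more in all the others. Among the N22 drought libraries the third stood apart, nearest of the 3 to the control mean in 94.8% of all rows called under drought.

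Absence from IR64 was mostly seen at low levels in N22. IR64 libraries lacked 3654 rows, of which 863 were listed in all 6 N22 libraries and 110 (3.01%) reached the mean of 10 FPKM. These 110 made up 0.931% of the 11816 rows at or above that level in N22. The opposite rule, with the cultivars exchanged, took 89 of 11799 rows (0.754%). Of the 110, 49 had a mean from 10 to 20 FPKM, 33 from 20 to 50, 15 from 50 to 100 and 13 a mean of 100 FPKM or more. Their median was 22.8 FPKM, with the middle of the distribution from 14.7 to 49.7 FPKM, beside a median of 25.3 FPKM over all rows of at least 10 FPKM in N22. They held 1.34% to 2.46% of the summed FPKM of an N22 library, or 1.02% to 1.51% without the most abundant of them. In IR64, the rows of the opposite rule held 0.890% to 1.15%.

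**Figure D1:**
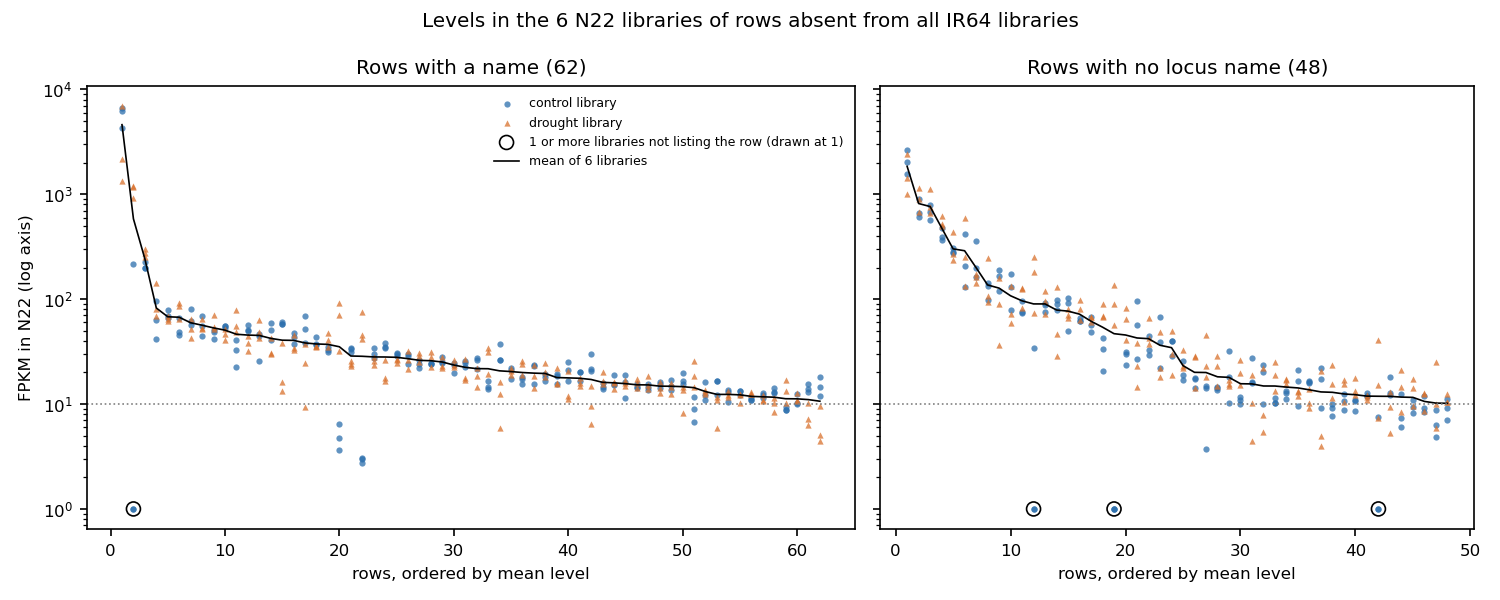
FPKM (log axis) of each of the 110 rows in the 3 control (circles) and 3 drought (triangles) libraries of N22, ordered by mean level (line), with named rows on the left and rows without a locus name on the right; the dotted line is the minimum of 10 FPKM, and rings, drawn at 1, mark rows that 1 or more libraries did not list. Few rows exceed 100 FPKM, and 4 rows are missing from control libraries.

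The values at the edges of the rule show how sharp it is. The lowest rows inside were XLOC_033903, with a mean of 10.2 FPKM, and XLOC_054098, also with 10.2 FPKM. XLOC_033903 stood at 6.33, 8.80 and 4.84 FPKM in controls and between 5.89 and 25.4 FPKM under drought, groups that overlap. It was called higher without the third drought library (log2 change 1.19, limma adjusted p = 0.0459) and with array weights (1.64), and under no other alternative run. XLOC_054098 stood at 7.03, 11.1 and 9.22 FPKM in controls and 10.6, 10.5 and 12.6 FPKM under drought, which overlap too. Just below the level stood XLOC_023178 with a mean of 9.92 FPKM and LOC_Os08g30719 with 9.90 FPKM. A further 31 rows of at least 10 FPKM in N22 missed the rule through a trace in IR64, a mean above 0 and at most 0.1 FPKM, and 27 of these were named. The most abundant of them were LOC_Os12g28015, with a mean of 212 FPKM in N22 and 0.0911 FPKM in a single IR64 library, and XLOC_030030, with 172 FPKM in N22 and 0.0859 FPKM in a single IR64 library.

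The most abundant row was XLOC_000117, named LOC_Os01g03310. It stood at 4286, 6635 and 6277 FPKM in the N22 controls and at 1345, 2190 and 6925 FPKM under drought. It ranked between 2 and 27 among all rows of a library by level. The first and second drought libraries lay below the controls and the third above them, so the groups overlapped, and the change was not called (log2 change -1.04, SE 0.60, limma adjusted p = 0.208). Leaving out the third drought library gave a call (log2 change -1.71, adjusted p = 0.0117), as did array weights, which give less weight to libraries that deviate more (log2 change -1.86, adjusted p = 0.00415).

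The name LOC_Os01g03310 also occurred in a row that IR64 listed. A second row, XLOC_003476, carries this name together with LOC_Os01g03330 and LOC_Os01g03340, and all 12 libraries listed it. It stood at 341, 517 and 347 FPKM in IR64 controls and at 1080, 2048 and 1293 FPKM under drought. In N22 it stood at 133, 222 and 191 FPKM in controls and at 444, 579 and 380 FPKM under drought. The row of several loci was thus the higher in IR64 and the row of a single locus the higher in N22. Whether reads were shared between the rows, and which of its loci gave the signal of XLOC_003476 in IR64, was not tested.

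At LOC_Os11g45080 the cultivars listed different rows of the same name. XLOC_014457, one of the 110, stood at 37.6, 44.0 and 48.1 FPKM in N22 controls and at 33.1, 34.2 and 45.8 FPKM under drought. XLOC_014456, of the same name, was listed in all 6 IR64 libraries and in no N22 library. Its levels in IR64 were 5.41, 5.91 and 6.01 FPKM in controls and 5.04, 4.96 and 4.91 FPKM under drought. At LOC_Os12g27370 both rows were near or at 0 in IR64. XLOC_015910, which names LOC_Os12g27335 and LOC_Os12g27370, had a mean of 68.0 FPKM in N22, and XLOC_015912 had means of 11.2 FPKM in N22 controls and 16.3 FPKM under drought, against 0.0747 FPKM over the 6 IR64 libraries.

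**Figure D2:**
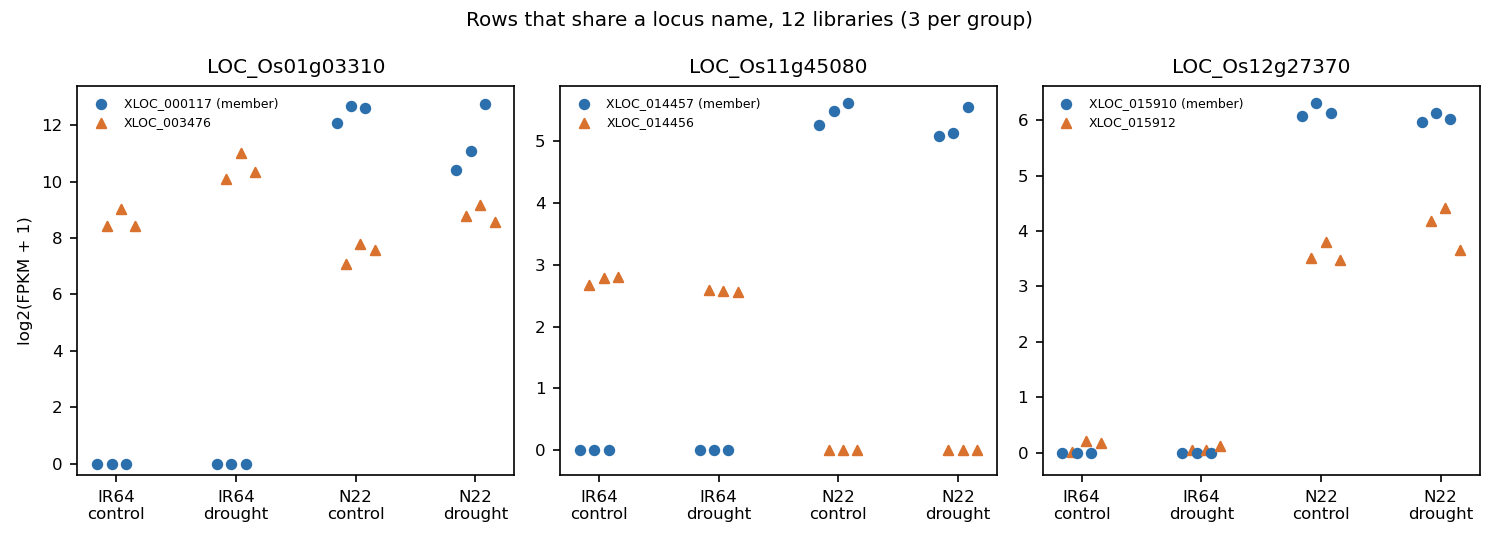
Levels as log2(FPKM + 1) in the 12 libraries (3 per group) of 3 of the 110 rows (circles) and of another row with the same locus name (triangles); 0 means not listed. At LOC_Os01g03310 and LOC_Os11g45080 the second row is listed in all 6 IR64 libraries, whereas at LOC_Os12g27370 it is below 1 FPKM there.

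In all, 11 of the 62 named rows had a locus name that occurs in another row, and for 4 of them IR64 listed that other row. For 2 of the 62, LOC_Os01g03310 and LOC_Os11g45080, the other row had a mean of 1 FPKM or more in IR64. In the set of the opposite rule, 2 of 41 named rows had such a partner in N22. For the other 7 of the 11 (LOC_Os01g06570, LOC_Os05g33670, LOC_Os06g12950, LOC_Os06g51530, LOC_Os09g17329, LOC_Os11g20310 and the unplaced model ChrUn.fgenesh.gene.38) IR64 listed neither row. LOC_Os06g17130 had a second row that 1 IR64 library listed, at 0.00994 FPKM. Each of these second rows was lower in N22 than its partner.

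Rows with no locus name were frequent. Of the 110, 48 (43.6%) bore a dash in place of a name, 61 (55.5%) one or more LOC_Os names and 1 the name of an unplaced gene model. Among all rows of at least 10 FPKM in N22, 235 of 11816 (1.99%) had no name, and among all rows 6.21%. Put the other way, 20.4% of the unnamed and 0.527% of the LOC_Os rows at that level in N22 were absent from IR64. The opposite set had the same number of unnamed rows, 48 of 89 (53.9%), which made up 21.2% of the unnamed rows of at least 10 FPKM in IR64. These shares describe the rows and were not tested.

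The unnamed rows had a higher median level and a wider spread between replicates. Their median was 28.9 FPKM and their upper quartile 90.1 FPKM, against 22.4 and 40.5 FPKM for the LOC_Os rows. The median coefficient of variation between control libraries was 20.7% for the unnamed and 11.0% for the LOC_Os rows, beside 8.02% over all rows of at least 10 FPKM in N22. Under drought it was 31.6% and 16.1%, beside 15.3%. Among the 10 most abundant of the 110, 7 were unnamed.

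XLOC_057524 led the unnamed rows, at 2623, 2033 and 1577 FPKM in controls and 1002, 1435 and 2423 FPKM under drought, groups that overlap. XLOC_049728 stood at 670, 897 and 612 FPKM in controls and 900, 1150 and 672 FPKM under drought, and XLOC_040251 at 678, 794 and 570 FPKM and 751, 658 and 1134 FPKM. Both pairs of groups overlapped. XLOC_006732, XLOC_035561 and XLOC_006602 followed with means of 302, 290 and 200 FPKM. None of these 6 was called in limma's test (changes from -0.49 to 0.31), and 0 of them was at an unadjusted p below 0.05.

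The unnamed rows also lay together in the numbering of the assembly. Of the 48, 38 (79.2%) had a majority of unnamed rows among the 20 rows before and the 20 after them by XLOC number. For all unnamed rows of at least 10 FPKM in N22 this share was 43.8%, and for all unnamed rows 55.9%. The files give no coordinates, and no chromosome was assigned to an unnamed row. An unnamed row and a named one stood side by side once, as XLOC_047559 and LOC_Os07g01960 (XLOC_047558). LOC_Os07g01960 stood at 197, 224 and 200 FPKM in controls and 255, 302 and 275 FPKM under drought. XLOC_047559 stood at 365, 479 and 395 FPKM in controls and 500, 619 and 521 FPKM under drought. In each of the 6 libraries XLOC_047559 was the higher, by a ratio of 1.85 to 2.13. Both had groups that do not overlap. LOC_Os07g01960 had a log2 change of 0.42 (SE 0.13, limma adjusted p = 0.0482) and XLOC_047559 one of 0.41 (SE 0.17, adjusted p = 0.105). Both changes lay below the minimum of 1 for a call, and XLOC_047559 also missed the adjusted p of 0.05.

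The LOC_Os names are numbered along each chromosome, so the 61 LOC_Os rows can be placed in order. Chromosome 12 held 10 of them, 1.81% of its 551 LOC_Os rows of at least 10 FPKM in N22. Chromosome 11 held 7 of 473 (1.48%), chromosome 6 held 9 of 921 (0.977%), chromosome 9 held 5 of 601 (0.832%) and chromosome 7 held 6 of 851 (0.705%). Shares were lowest on chromosome 3, with 3 of 1732 (0.173%), and chromosome 2, with 3 of 1396 (0.215%). For the opposite rule chromosome 12 again had the highest share (0.903%), whereas chromosome 11 had 0.410% and chromosome 7 had 0.118%. These shares were not tested.

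By chromosome, the rows on chromosome 12 were LOC_Os12g03800, LOC_Os12g04790, LOC_Os12g10220, LOC_Os12g12115, LOC_Os12g12140, LOC_Os12g12570, LOC_Os12g15505, LOC_Os12g27335 (with LOC_Os12g27370), LOC_Os12g30320 and LOC_Os12g32130, with means from 11.6 to 68.0 FPKM. Chromosome 11 held LOC_Os11g04894 (with LOC_Os11g04910), LOC_Os11g12340, LOC_Os11g20310, LOC_Os11g43895, LOC_Os11g44380, LOC_Os11g45080 and LOC_Os11g47370, with means from 10.6 to 40.5 FPKM. Chromosome 6 held LOC_Os06g02710, LOC_Os06g02900, LOC_Os06g02930, LOC_Os06g07810, LOC_Os06g09020, LOC_Os06g12950, LOC_Os06g17130, LOC_Os06g49930 and LOC_Os06g51524 (with LOC_Os06g51530), with means from 11.2 to 583 FPKM. The LOC_Os rows of chromosome 7 had means from 12.2 to 242 FPKM, those of chromosome 1 from 11.7 to 4610 FPKM, and those of the remaining 7 chromosomes from 11.0 to 82.3 FPKM. The RefSeq gene table of assembly ASM3414082v1 holds no LOC_Os names, so it could match none of the 61 LOC_Os rows, and products are not given.

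**Figure D3:**
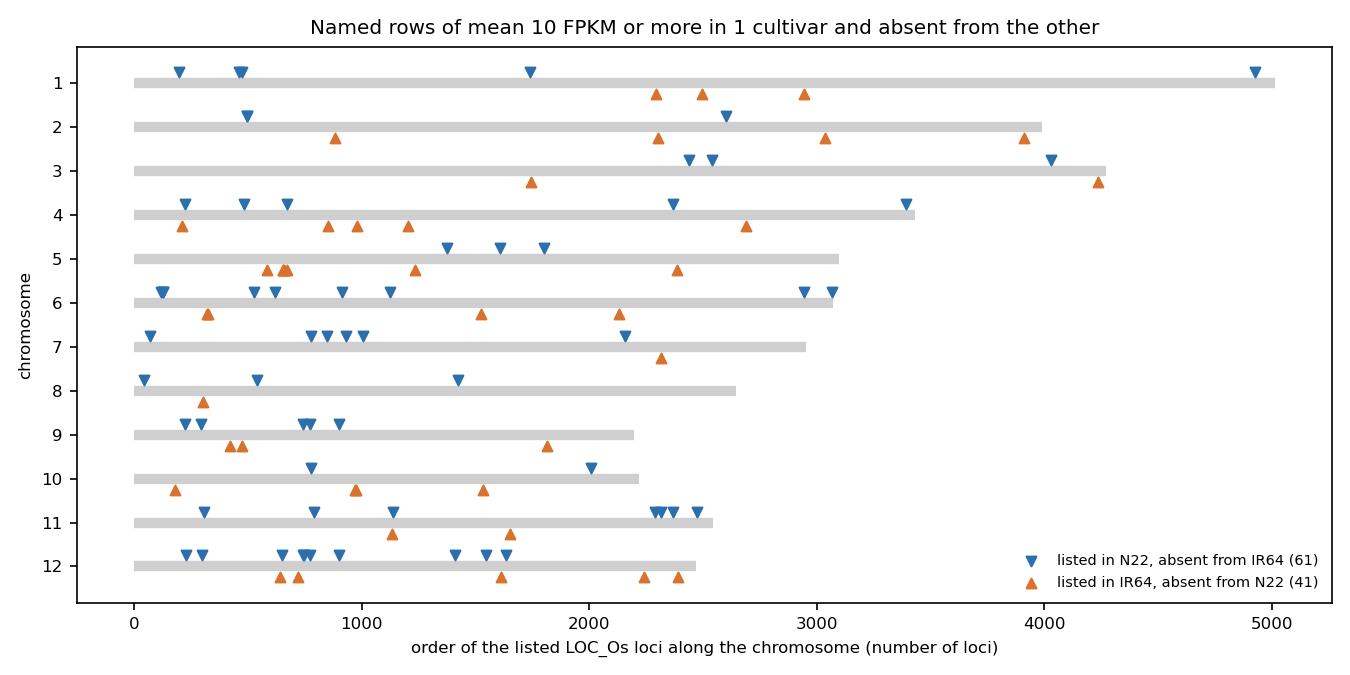
Place of each LOC_Os row in the order of listed loci along the 12 chromosomes (grey bars; the horizontal axis counts loci), for the 61 LOC_Os rows of at least 10 FPKM in N22 that IR64 lacks (blue) and the 41 of the opposite rule (orange). The rows are spread over all 12 chromosomes, with 10 of the 61 on chromosome 12.

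How many of these rows have a neighbour among them differed between settings of the rule. Of the 61, 7 (11.5%) had another of the 61 within 10 loci, in 3 groups. With a minimum of 5 FPKM this held for 38 of 114 (33.3%) and with 20 FPKM for 5 of 35 (14.3%). It held with drought libraries alone for 14 of 70 (20%) and with controls alone for 12 of 73 (16.4%). With up to 0.1 FPKM allowed in IR64 it held for 13 of 80 (16.3%). The settings give sets of unlike size, so these shares are not on equal terms. For the opposite rule at 10 FPKM it held for 8 of 41 (19.5%). A pair lay next to each other, LOC_Os02g06760 and LOC_Os02g06770, with means of 17.9 and 16.1 FPKM. LOC_Os12g12115 and LOC_Os12g12140 lay 3 loci apart, with means of 28.1 and 46.3 FPKM. LOC_Os06g02710, LOC_Os06g02900 and LOC_Os06g02930 formed the one run of 3, the second 7 loci after the first and the third 1 locus after the second. LOC_Os01g06570 and LOC_Os01g06740 lay 15 loci apart and joined as a further group within 20 loci. A row of the opposite set lay within 10 loci of 1 of the 61.

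The loci beside these rows were also often missing from IR64. For each of the 61 the nearest listed locus on either side that was not itself one of them was taken. This gave 122 neighbours, a shared one counted for each. A row that names several loci can stand for several neighbours. Of these, 60 (49.2%) were listed in all 6 IR64 libraries, 33 in 1 to 5 of them and 29 (23.8%) in none. Over all 37891 listed loci, 70.6% were in all 6 IR64 libraries and 8.60% in none. In N22, 68.0% of the neighbours and 71.4% of all loci were in all 6 libraries. Of the 61 rows, 24 had a neighbour that no IR64 library listed, and 13 had both neighbours at a mean of 1 FPKM or more in IR64. LOC_Os06g02900 and LOC_Os06g02930 share such a neighbour, LOC_Os06g02940, at a mean of 5.71 FPKM in N22 and in no IR64 library. The pair LOC_Os02g06760 and LOC_Os02g06770 stood between LOC_Os02g06754 and LOC_Os02g06779, with means of 1.55 and 9.36 FPKM in N22 and both absent from IR64. Around LOC_Os12g12115 and LOC_Os12g12140, IR64 listed none of LOC_Os12g12110 (5.37 FPKM in N22), LOC_Os12g12120 and LOC_Os12g12130. The last pair had an identical mean of 4.18 FPKM in N22, as a single row naming both would give. By contrast, the locus after LOC_Os01g06570, LOC_Os01g06580, had like means in both cultivars, 43.2 FPKM in IR64 and 44.0 FPKM in N22. Some neighbours absent from IR64 were at trace levels in N22 too. Examples were LOC_Os12g27330 (0.0151 FPKM), LOC_Os12g04770 (0.0107 FPKM) and LOC_Os06g09060 (0.00433 FPKM). A missing neighbour is thus not always one expressed in N22.

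A further feature was the number in the locus name. RGAP numbers loci in steps of 10 and gives numbers in between to others. Of the 61 LOC_Os rows, 14 (23.0%) had a number that is not a multiple of 10, such as LOC_Os08g01514 and LOC_Os12g15505. The share was 6.51% among the 11574 LOC_Os rows of at least 10 FPKM in N22 and 7 of 41 (17.1%) for the opposite rule. None of 12 loci at which rice cultivars are known to differ (Ghd7, Ghd8, Hd1, SD1, Rc, Pi-ta, Pib, Pid2, GSE5, DEP1, Gn1a and Wx, which act in flowering time, plant height, grain traits and blast resistance) was among the 110. Of the 12, 10 were listed in all 6 IR64 libraries. Only DEP1 had a mean of 10 FPKM or more in an N22 group, 14.0 FPKM in controls. The others thus missed the level of the rule, and all of them except Rc were also listed in IR64. Rc was listed in no IR64 library and in 5 of the N22 libraries, at means of 0.0632 FPKM in controls and 0.0139 FPKM under drought. Under drought in N22, limma's test called 0 of the 9 that passed the filter, beside 12.1% of all rows tested, and 4 of the 9 had an unadjusted p below 0.05, beside 47.4%. Hd1, a regulator of flowering time, had a log2 change of 0.72 (adjusted p = 0.0182) and SD1, a gibberellin oxidase that sets plant height, one of 0.99 (adjusted p = 0.0201), both below the minimum of 1 for a call.

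Under drought, 13 of the 110 rows (11.8%) changed in N22, 9 upward and 4 downward. A row was called where limma's adjusted p in the 6 N22 libraries was at most 0.05 and the change at least 1 on the log2(FPKM + 1) scale, which understates the change of low rows. All 110 passed the filter of 1 FPKM in 2 of 3 libraries of a group, 4 of them through drought alone. Since the rule asked for a mean of 10 FPKM over both treatments, it also took rows that reach this level in a single treatment, which favours a change in them. Of the 110, 12 had a control mean under 10 FPKM, of which 5 were called higher, and 6 had a drought mean under 10 FPKM, of which 1 was called lower. Of the 92 with both means at 10 FPKM or more, 7 (7.61%) were called, 4 higher and 3 lower. Of these 4 rises, those of LOC_Os06g02710 and XLOC_006642 passed the filter through drought alone and could not have been falls. With the filter required in both groups, an alternative chosen after seeing the data, the 4 that pass through drought alone were not tested. Of the rest, 5 rose and 4 fell (8.49% called), beside 11.2% of the 21310 rows then tested. Over the 23147 rows tested, 12.1% were called, 6.92% upward and 5.21% downward, and among the 11816 rows with a mean of at least 10 FPKM in N22, the level at which the 110 were chosen, 15.5% were called. The median change was 0.04 for the 110 and -0.01 for all rows tested, and 61.8% and 64.4% had a change of less than 0.5 in size. At an adjusted p of at most 0.05 alone stood 25 of the 110 (22.7%), beside 33.4% of all rows, and at an unadjusted p below 0.05 stood 37 (33.6%), beside 47.4%. Drought and control values did not overlap in 40 of the 110, with drought higher in 24 and lower in 16, beside 26.6% and 27% of all rows tested. Of the 61 LOC_Os rows 4 rose and 4 fell (13.1% called), beside 12.3% of all LOC_Os rows tested. Of the 48 unnamed rows 5 rose and 0 fell (10.4% called), beside 8.84% of all unnamed rows tested. Of the 5 unnamed rises, XLOC_057537, XLOC_006642 and XLOC_014629 passed the filter through drought alone and could only rise.

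The count of 13 changed whenever a single library was left out, which also leaves fewer libraries to test. It was 3 without drought library 1, 4 without drought library 2, 4 without control 1, 5 without control 2 and 4 without control 3, while without drought library 3 it was 25. All rows moved alike, from 12.1% called to between 3.89% and 7.48% without any of the first 5 and to 18.2% without the third drought library. The third drought value was the nearest of the 3 to the control mean in 11 of the 13 rows (84.6%), beside 94.8% of all rows called.

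**Figure D4:**
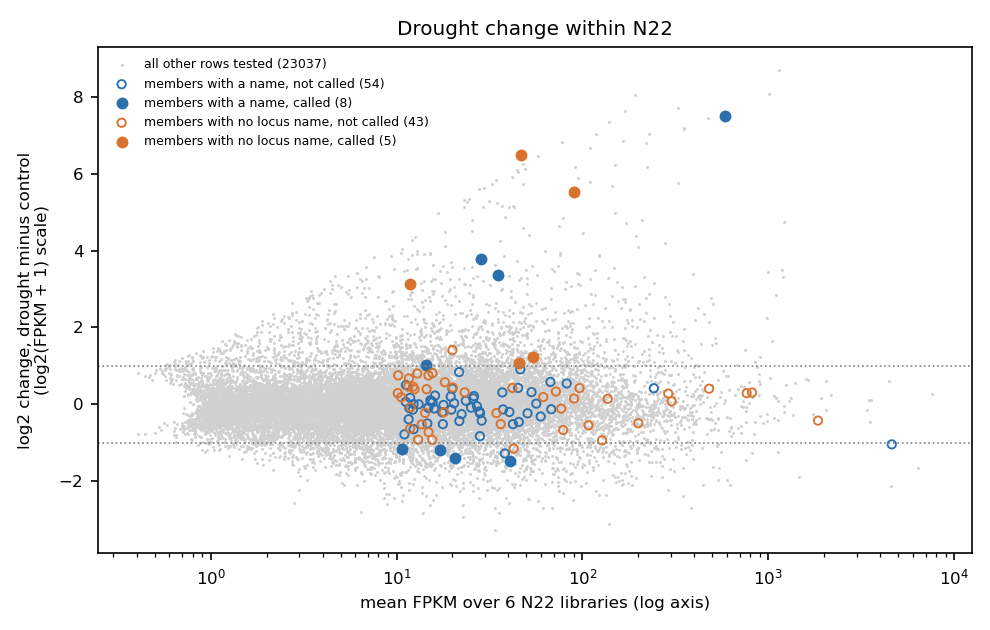
Change under drought in N22 (log2(FPKM + 1) scale, drought minus control) against mean FPKM (log axis) for all rows tested (grey) and the 110 rows (named in blue, unnamed in orange; filled where called); dotted lines mark a change of 1 either way. Of the 110, 97 are not called, with changes between -1.28 and 1.41.

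LOC_Os01g06570 and LOC_Os01g06740 rose most among the rows listed in all 6 N22 libraries. Their control means were under 10 FPKM, so they belong to the 110 through their drought level, and the choice of rows favours a rise in them. LOC_Os01g06570 stood at 2.97, 3.04 and 2.72 FPKM in controls and at 75.3, 45.8 and 41.5 FPKM under drought (log2 change 3.77, SE 0.22, limma adjusted p = 0.00160). LOC_Os01g06740, 15 loci further on, stood at 6.50, 3.64 and 4.79 FPKM in controls and at 92.9, 71.0 and 32.3 FPKM under drought (log2 change 3.37, SE 0.39, adjusted p = 0.00526). In both, the first drought library was the highest and the third the lowest, and each drought value was several times any control value. Both calls held without any 1 of the 6 libraries.

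Of the 110 rows, 4 were not listed in all 6 N22 libraries, each of them missing from 2 or 3 controls. They passed the filter on low values through drought alone, so a rise was the only change they could show. They are counted among the 9 rises, and their values are given as a description, without p-values. XLOC_057537, which has no locus name, was in none of the controls and stood at 135, 89.2 and 57.0 FPKM under drought. LOC_Os06g02710 stood at 217 FPKM in the first control, was not listed in the other 2, and stood at 1164, 926 and 1192 FPKM under drought. For both, every drought value lay above every control. XLOC_006642 stood at 34.5 FPKM in the second control, was not listed in the other 2, and stood at 180, 252 and 74.6 FPKM under drought, again without overlap. XLOC_014629 stood at 7.46 FPKM in the second control and in no other, and at 15.2, 41.2 and 7.28 FPKM under drought, groups that overlap. For the last 3 a single control lists the row. The calls of these 3 were lost without either of the controls that lack the row and without drought library 1 or 2.

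Smaller rises were called for 3 more rows. XLOC_014642 stood at 20.9, 33.6 and 42.8 FPKM in controls and 67.4, 90.7 and 69.1 FPKM under drought (log2 change 1.24, SE 0.26, limma adjusted p = 0.0188). XLOC_056564 stood at 23.6, 29.9 and 31.7 FPKM in controls and 64.4, 82.9 and 40.7 FPKM under drought (log2 change 1.07, SE 0.26, adjusted p = 0.0252). LOC_Os12g15505, whose control mean was also under 10 FPKM, stood at 6.71, 9.04 and 11.6 FPKM in controls and 18.3, 25.8 and 14.4 FPKM under drought (log2 change 1.01, SE 0.25, adjusted p = 0.0266). In all 3 every drought value lay above every control value. The call of XLOC_014642 did not survive leaving out library 1 or 2 of either group (adjusted p = 0.0527 to 0.0612). Those of XLOC_056564 (0.0571 to 0.0859) and LOC_Os12g15505 (0.0525 to 0.0841) were lost without any 1 of the controls or the first or second drought library, and with quantile scaling, where the changes were 0.94 and 0.97. With array weights LOC_Os12g15505 had a change of 0.95.

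The 4 rows that fell were all LOC_Os rows, and in each of them all 3 drought values lay below the controls. LOC_Os06g02900 went from 57.7, 60.5 and 57.6 FPKM to 16.2, 13.3 and 38.5 FPKM (log2 change -1.48, SE 0.36, limma adjusted p = 0.0244). LOC_Os03g61480 went from 26.1, 37.8 and 26.1 FPKM to 5.85, 12.4 and 16.2 FPKM (log2 change -1.39, SE 0.34, adjusted p = 0.0257). In both the third drought library was the highest of its group. LOC_Os10g40520 went from 29.8, 21.6 and 20.6 FPKM to 6.39, 9.64 and 14.9 FPKM (log2 change -1.20, SE 0.29, adjusted p = 0.0243). LOC_Os11g12340, whose drought mean was under 10 FPKM, went from 18.2, 12.1 and 14.5 FPKM to 4.47, 5.03 and 9.52 FPKM (log2 change -1.16, SE 0.27, adjusted p = 0.0228). Leaving out a control, or drought library 1 or 2, ended each of these 4 calls (adjusted p = 0.0551 to 0.0845). With no filter on low values, 9 of the 13 calls were lost. Among the 9 were LOC_Os06g02710, XLOC_006642 and XLOC_014629, which passed the filter through drought alone. The others had a limma adjusted p of 0.0522 to 0.0584. The calls of LOC_Os01g06570, LOC_Os01g06740 and XLOC_014642 were not among the 9. Nor was that of XLOC_057537, which could only rise, so that its call adds no support.

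**Figure D5:**
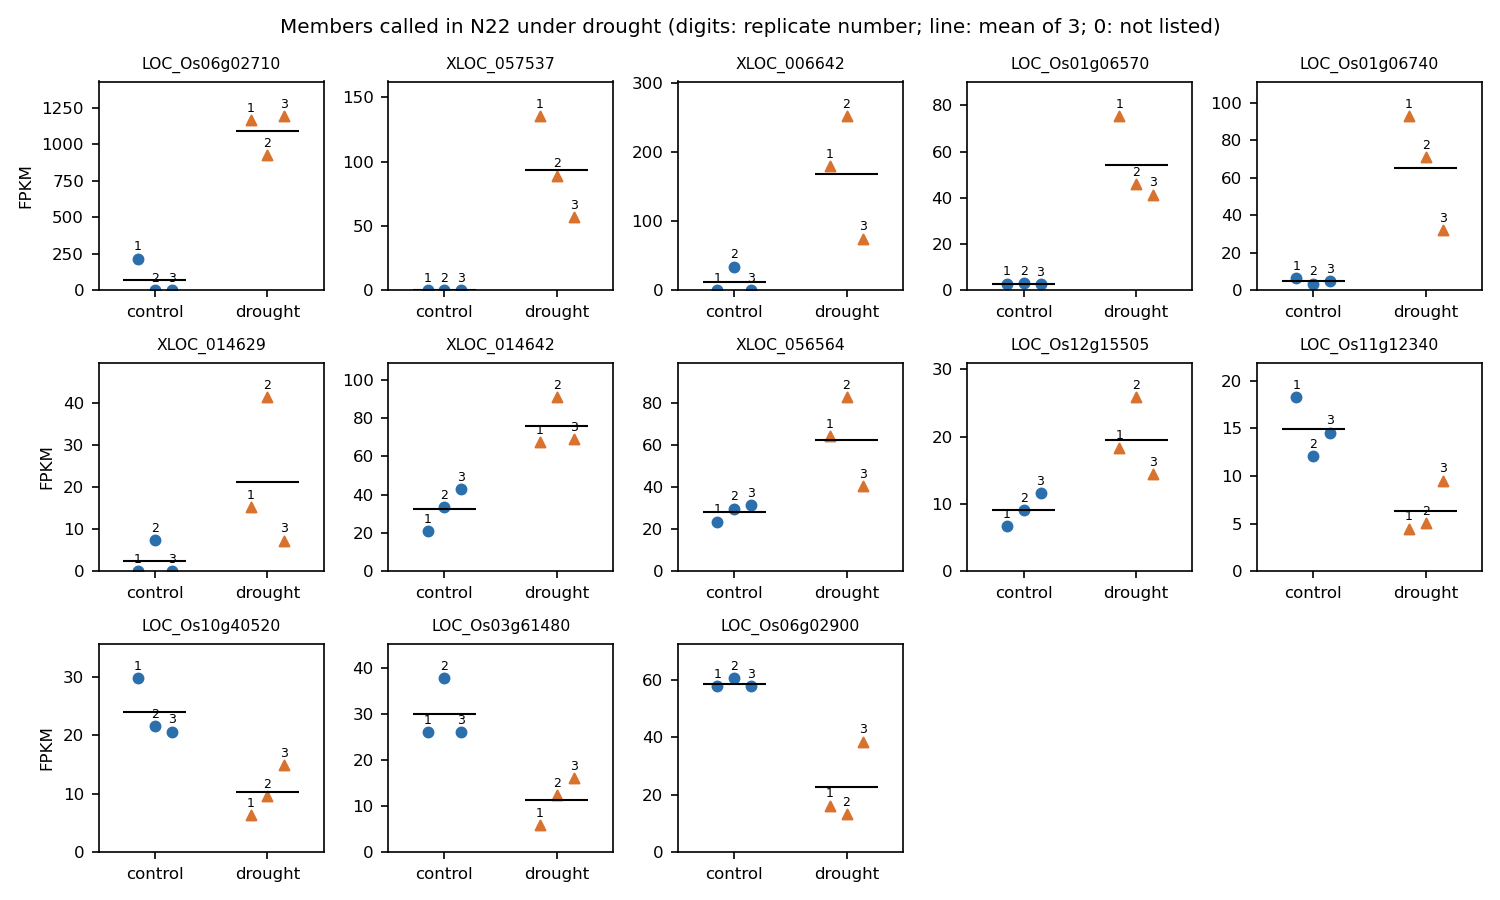
FPKM by library of the 13 rows called under drought in N22, with the replicate number beside each point and a line at the mean of 3; a value of 0 means that the library does not list the row. The 9 rows that rose come first and the 4 that fell last, and in 12 of the 13 the control and drought values do not overlap.

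Neighbours did not all move alike. Within the run on chromosome 6, LOC_Os06g02900 was called lower. LOC_Os06g02930 stood at 24.7, 27.8 and 25.2 FPKM in controls and 23.0, 28.4 and 21.9 FPKM under drought (log2 change -0.09, SE 0.13). The remaining row of the run, LOC_Os06g02710, passed the filter through drought alone and could show only a rise. Its call is therefore not set against theirs. LOC_Os12g12140 stood at 22.5, 40.8 and 32.8 FPKM in controls and 55.0, 78.4 and 48.3 FPKM under drought. Its change of 0.91 (SE 0.26, limma adjusted p = 0.0380) was below the minimum for a call, which it passed without the third drought library (1.05). Its neighbour LOC_Os12g12115 had values of 27.7, 34.1 and 29.8 FPKM in controls and 23.7, 25.8 and 27.9 FPKM under drought, groups that overlap narrowly. The pair on chromosome 2 had changes near 0, of -0.02 (SE 0.16), whose sign differed between alternatives, and 0.23 (SE 0.13), neither of them called.

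Among the 97 rows that were not called, 4 had a change of at least 1. Beside LOC_Os01g03310 these were LOC_Os04g17510 (log2 change -1.28, SE 0.48, limma adjusted p = 0.0777), XLOC_054058 (1.41, SE 0.54, 0.0850) and XLOC_045157 (-1.15, SE 0.51, 0.119). With same-numbered libraries paired as a replicate block, LOC_Os04g17510 (SE 0.30, adjusted p = 0.0380) and XLOC_045157 (SE 0.14, adjusted p = 0.0190) were called lower. XLOC_045157 stood at 96.9, 56.6 and 27.1 FPKM in controls and 38.0, 23.0 and 14.4 FPKM under drought, lower within each pair though the groups overlap. Both falls, and the rise of XLOC_054058, were also called with all 12 libraries in the fit. There the IR64 libraries, which lack these rows by the rule, shrink the spread (SE 0.41 for XLOC_045157). Those calls therefore add no support. LOC_Os04g17510 (-1.22) and XLOC_054058 (1.91) were called with array weights too. LOC_Os04g17510 stood at 68.6, 38.1 and 51.8 FPKM in controls and 24.6, 9.28 and 37.1 FPKM under drought, groups that barely part, and was called without the third drought library (-1.69). A further 12 rows had an adjusted p of at most 0.05 with a change under 1, 7 of them higher and 5 lower under drought. The largest of these falls was that of LOC_Os08g01514, by -0.83 (SE 0.18, adjusted p = 0.0195), which was called without the third drought library (-1.03).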

How the data were processed

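RNA sequencing of 12 rice libraries was analysed from the deposited FPKM values, with a table for each library. Per the design text of the series and the submitters' processing notes, the authors aligned filtered reads with TopHat2 2.1.1 to the RGAP rice genome and estimated FPKM with Cufflinks 2.2.1. The design text also names imputation of a value missing in 1 replicate, without saying whether the deposited values hold imputed ones.

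Tables were joined by gene identifier, with a missing row as 0. Groups and replicate numbers came from the labels. Values were not scaled further, and the depth per library is unknown, so no counting intervals are given. Drought was tested within N22 with limma 3.58.1 in R 4.3.3, on log2(FPKM + 1) with an intensity trend, two-sided, with Benjamini-Hochberg adjustment over the 23147 rows that reached an FPKM of 1 in 2 of the 3 libraries of a group. IR64 was left out of the fit, since its values of 0 would shrink the spread of the rows chosen. Cultivars were not compared by a test, because the rule used that contrast.

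Loci were ordered by their LOC_Os numbers over all rows. Named in the text are the 10 most abundant rows, the called rows (XLOC_014629, whose groups overlap, was added after its values were seen), those at the edges of the rule, those in groups of neighbours, and rows that share a locus name. The pairs outside runs, the rows with a change of at least 1 that were not called, and the smaller changes given as examples were chosen after their values were seen. The rule, members and lists were chosen with earlier results of these data known.

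Same-numbered control and drought libraries of N22 deviated together from their group means (r = 0.116, 0.172 and 0.128, all above 0.1), so the numbers from the labels were taken to pair them. The planned fit has no block, and calls that a block changes are given beside it. Python 3.11.15, pandas 2.3.3 and matplotlib 3.10.9 were also used.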

Additional observations from a re-analysis of the deposited data

How the results depend on the processing

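The rule took 198 rows at a minimum of 5 FPKM and 61 at 20 FPKM, and between 110 and 116 when each of the 12 libraries was left out. The unnamed share lay between 38.6% and 45.6% under the alternatives run. Rows with a neighbour within 10 loci, 7 of 61 in the main count, numbered 38 of 114 at 5 FPKM and 5 of 35 at 20 FPKM. They numbered 13 of 80 with up to 0.1 FPKM allowed in IR64, 12 of 73 in controls alone and 14 of 70 in drought libraries alone. With each library left out they numbered 7 to 10.

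Of the 110, 9 rose and 4 fell. With no filter on low values, which tests more rows, 4 rose and 0 fell (13 falls at an unadjusted p below 0.05 in limma), 4 in all, and over all rows 707 fell in place of 1205. With array weights 12 fell and 24 were called. With the adjusted p alone 16 rose and 9 fell, 25 in all, and over all rows 7735 were called, 3902 up and 3833 down. With each N22 library left out, 3 to 14 rose, 0 to 11 fell and 3 to 25 were called. Without any 1 library other than the third drought library, 0 fell in limma's test, with 10 to 13 falls at an unadjusted p below 0.05. Over all rows 892 to 4188 were then called, 811 to 2169 up and 81 to 2019 down, against 2806, 1601 and 1205. The cause was not tested. With the filter passed in both groups, chosen after seeing the data, 5 rose. With a replicate block 9 rose and 6 fell. The 13 calls were among those 15, and the other 2 were LOC_Os04g17510 and XLOC_045157. With all 12 libraries in the fit, where the IR64 libraries lack all 110 rows and so shrink their spread, 10 rose and 6 fell. Quantile scaling left 7 rises and 4 falls and moved the split over all rows from 1601 and 1205 to 1489 and 1337.

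Among 33 rows followed singly, the sign changed in 3 that were not called. XLOC_006732 (0.08) had changes of -0.001 with quantile scaling, -0.079 with array weights and from -0.183 (without the third drought library) to 0.254 with each library left out. XLOC_035561 (0.28) had -0.297 with array weights, -0.109 without the third control, and -0.285 (without the third drought library) to 0.783 over the libraries left out. LOC_Os02g06760 (-0.02) had 0.234 with array weights and -0.166 to 0.07 with each library left out.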
